A study of Cavia porcellus with 35 samples.

Results

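The immediate early genes described here are FOS, FOSB, JUNB, EGR1, EGR2, EGR3, EGR4, NPAS4, ARC and NR4A1. They were chosen by symbol, and all 10 were found in each of the 4 deposited count tables, among 12100 genes listed in any table and 10949 listed in all 4. Each of the 10 also passed the filter on low counts in every table, so all of them were tested in every comparison. The symbols are those of the tables, which give no coordinates.

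The libraries were made from the prefrontal cortex of 35 guinea pigs (Cavia porcellus) on postnatal day 40, with 1 library per animal. Pregnant guinea pigs had received repeated courses of betamethasone, a synthetic glucocorticoid (sGC, labelled Beta), or saline (control) in late gestation, and their offspring are the F1 generation. F1 females comprised 4 control and 4 sGC animals and F1 males 5 control and 6 sGC animals. F2 and F3 females, also 4 control and 4 sGC animals each, descended from exposed or control grandmothers and great-grandmothers through their fathers, which had been mated with females from outside the experiment. The treatment was given to the pregnant females, so the F1 animals were exposed before birth. The F2 and F3 animals descended from F1 males and were not treated themselves. The sequenced animals had been selected for the amount and quality of their RNA.

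Immediate early genes are switched on within minutes of synaptic activity, growth factors or stress, without new protein synthesis, and their transcripts decay quickly. In cortical neurons, calcium entry and the kinases it activates drive factors such as CREB, SRF and MEF2, which sit ready at the promoters of these genes. Their transcript levels in frozen tissue therefore reflect the recent activity of the cells as well as their number and kind. FOS, FOSB and JUNB encode subunits of the AP-1 transcription factor. EGR1 to EGR4 encode related zinc-finger transcription factors, and NPAS4 encodes a neuronal factor that responds selectively to depolarization. NR4A1 encodes an orphan nuclear receptor, whereas ARC encodes a cytoskeleton-associated protein of dendrites that takes part in the removal of AMPA receptors from synapses.

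Libraries held between 12819964 and 19551079 gene-assigned reads in females and between 25697953 and 31763585 in males. The column headers carry the name aconstas for all females and Matthews for all males, and what these names stand for is not stated. Summed levels of cell-type markers differed between libraries. Summed over 10 markers of striatal neurons, the level was 2857 and 2699 CPM (reads relative to the normalised library total) in F1 female controls 1 and 4 and 663 and 1006 CPM in controls 2 and 3, against 296 to 687 CPM in the sGC animals. Of these 10 markers, 7 had a lower level after sGC (false discovery rate, FDR, under 0.05). In F1 males all 8 oligodendrocyte markers were higher in sGC animals, with sums of 7495 to 12859 CPM against 3536 to 6708 CPM in controls. The 9 excitatory neuron markers summed to at least 2686 CPM in every library. In 1 label field the punched region is called the paraventricular nucleus, yet the markers of that nucleus together reached at most 19.3 CPM in any library. In bulk tissue, fewer cells of a type and less RNA per cell cannot be told apart.

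The first question was whether sGC exposure was associated with altered levels of immediate early genes in each generation and sex. By edgeR's quasi-likelihood test, no member passed an FDR of 0.05 in any of the 4 groups, and in each group 1 of 10 had an unadjusted p under 0.05. In F1 females this 1 was JUNB (lower in sGC animals), in F2 females ARC (higher), in F3 females EGR3 (higher) and in F1 males EGR4 (lower). Among all tested genes, 16.5% were called in F1 females, 0.278% in F2 females, 1.34% in F3 females and 9.22% in F1 males. At an unadjusted p under 0.05 the corresponding shares of all genes were 34.2%, 16.1%, 17.3% and 25.2%. In no group did 1 of 10 members exceed these shares. Whether the members' share was lower was not tested, and 10 genes are few for that. With the likelihood ratio test of edgeR and with DESeq2, 1 member passed an FDR of 0.05 in each female generation. These were JUNB in F1, ARC in F2 and EGR3 in F3, and 0 passed in F1 males. Over all genes the likelihood ratio test called 2100 of 11268 in F1 females and 534 of 11132 in F2 females. It called 616 of 11420 in F3 females and 1410 of 11524 in F1 males. DESeq2 called 2423, 473, 632 and 1590 genes in the same order.

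**Figure D1:**
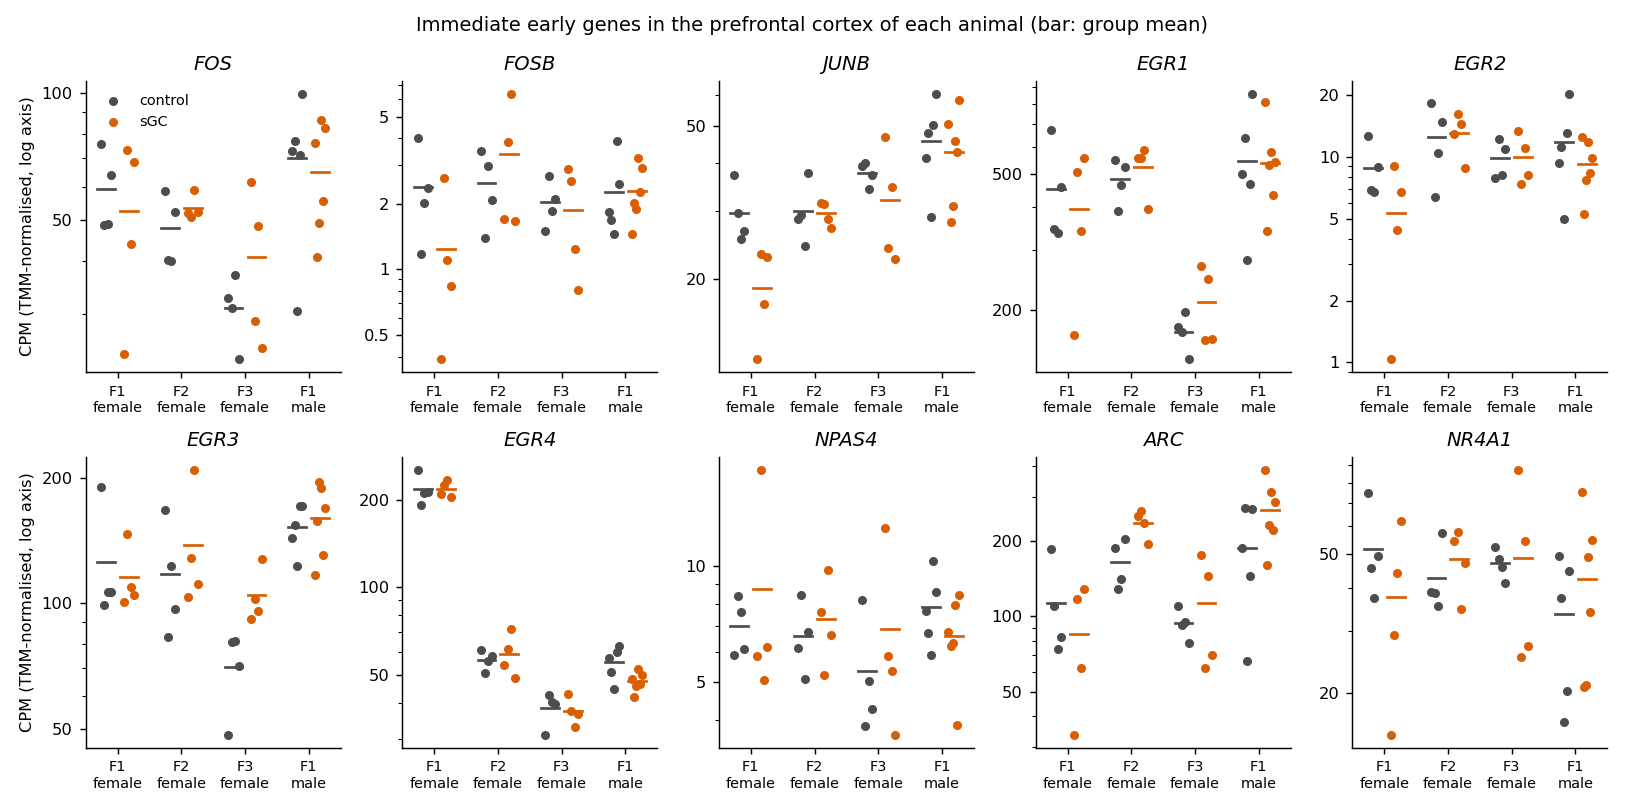
Level of each of the 10 immediate early genes in every animal, as TMM-normalised CPM on a log axis, by generation and sex (x axis). Each point is 1 animal (grey, control; orange, sGC) and each bar is a group mean; all 4 F1 female sGC animals lie below the controls for JUNB and all 4 F3 female sGC animals lie above them for EGR3.

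JUNB, an AP-1 subunit, was measured at 37.2, 29.6, 25.4 and 26.7 CPM in the 4 F1 female controls. In the F1 female sGC animals it stood at 12.4, 23.2, 17.2 and 22.9 CPM. Every sGC animal thus lay below every control, an arrangement shown by 11.2% of all tested genes in F1 females. The log2 fold change of sGC over control was -0.65 ± 0.20 (SE, n = 4 per group, 95% interval -1.11 to -0.20, unadjusted p = 0.0102, FDR = 0.0567 in edgeR's quasi-likelihood test). The FDR of JUNB in F1 females fell under the threshold with the likelihood ratio test (0.0177), with DESeq2 (0.0207), with upper-quartile normalisation (0.0467), with library totals only (0.0345) and in a single fit of all 8 groups (0.0371). Without controls 1 and 4, which held the most striatal marker RNA, the log2 fold change was -0.52 (FDR = 0.173) and JUNB no longer had an unadjusted p under 0.05. Other sums also separated the F1 female groups without overlap. Microglia markers summed to 188 to 211 CPM in sGC animals against 256 to 305 CPM in controls, and astrocyte markers to 7465 to 8018 CPM against 8090 to 9213 CPM. The heat-shock genes summed to 6446 to 6699 CPM against 5605 to 6230 CPM. The part of these markers in the JUNB difference was not tested.

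In the other groups the JUNB values of sGC and control animals overlapped. F2 female controls ranged from 24.3 to 37.7 CPM and F2 female sGC animals from 27.1 to 31.6 CPM. In F3 females it was 37.7 ± 2.58 CPM for controls and 32.0 ± 11.3 CPM after sGC (SD, n = 4 each), with sGC values from 22.5 to 46.8 CPM that reached past the controls on both sides. In F1 males the 5 controls averaged 45.7 ± 11.6 CPM and the 6 sGC animals 42.7 ± 11.5 CPM (SD). The sGC response of JUNB was higher by 0.63 ± 0.25 on the log2 scale in F2 than in F1 females, with an unadjusted p of 0.0224 and an FDR of 0.101 for the interaction in edgeR's quasi-likelihood test.

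ARC, the dendritic protein gene, was measured at 187, 129, 142 and 204 CPM in the F2 female controls. The F2 female sGC animals held 252, 262, 236 and 194 CPM. All but 1 of the sGC animals (animal 4) lay above all controls, so the groups overlapped. The log2 fold change was 0.51 ± 0.14 (SE, 95% interval 0.20 to 0.83, unadjusted p = 0.00429, FDR = 0.116 in edgeR's quasi-likelihood test), and the FDR was 0.0186 with the likelihood ratio test and 0.0171 with DESeq2. The sum of 8 oligodendrocyte markers was also higher in these sGC animals, at 5062 to 11632 CPM against 3420 to 5291 CPM in controls, and the sum of 8 upper-layer neuron markers was lower, at 482 to 659 CPM against 683 to 857 CPM. Their part in the ARC difference was not tested.

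In F1 males ARC had a fold change of like size with a larger error. The lowest, median and highest control values were 66.5, 187 and 270.2 CPM, and those of the sGC animals were 161, 259 and 384 CPM. The log2 fold change was 0.50 ± 0.31 (SE, n = 5 and 6, FDR = 0.339 in edgeR's quasi-likelihood test). In F1 females ARC averaged 113 ± 50.8 CPM across controls, and sGC animals averaged 85.3 ± 45.0 CPM (SD, n = 4 each). The response of ARC was not shown to differ between F1 and F2 females, with an unadjusted p of 0.0735 and an FDR of 0.206 for the interaction in edgeR's quasi-likelihood test.

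EGR3, a zinc-finger factor that acts downstream of neuronal activity and neurotrophins, was measured at 48.4, 80.6, 81.1 and 70.6 CPM in the F3 female controls. It was 91.5, 102, 96.1 and 128 CPM in the F3 female sGC animals. Every sGC animal lay above every control, which 5.95% of all tested genes did in F3 females. The log2 fold change was 0.57 ± 0.16 (SE, 95% interval 0.21 to 0.94, unadjusted p = 0.00589, FDR = 0.110 in edgeR's quasi-likelihood test), with an FDR of 0.0192 by the likelihood ratio test and 0.0128 by DESeq2. In F3 females, as in F1 females, the summed striatal markers were lower in sGC animals, at 231 to 501 CPM against 355 to 1096 CPM. The 9 excitatory neuron markers summed to more in every F3 sGC animal (3291 to 3602 CPM) than in any control (2686 to 2954 CPM), in the direction of EGR3, and the part of both marker sums was not tested.

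EGR3 overlapped between groups elsewhere. Control 1 of the F1 females held 189.6 CPM of EGR3, whereas the other controls held 98.9 to 107 CPM and the sGC animals 101 to 147 CPM. In F2 females the range of controls was 82.8 to 168 CPM and that of sGC animals 104 to 209 CPM. In F1 males the means were 153 ± 20.5 and 160 ± 31.3 CPM. Between F1 and F3 females the EGR3 response differed by 0.68 ± 0.29 on the log2 scale, with an unadjusted p of 0.0349 and an FDR of 0.281 for the interaction in edgeR's quasi-likelihood test.

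EGR4, which had the smallest spread between animals in every group, was the member of lowest unadjusted p in F1 males. The lowest, median and highest values were 44.7, 57.0 and 62.6 CPM in 5 controls and 42.0, 47.3 and 52.2 CPM in 6 sGC animals. All 6 sGC animals lay below the control mean of 55.0 CPM, but the groups overlapped through controls 2 and 3. The log2 fold change was -0.22 ± 0.08 (SE, 95% interval -0.39 to -0.04, unadjusted p = 0.0203, FDR = 0.118 in edgeR's quasi-likelihood test). Without control 3 the EGR4 difference was larger, at -0.28 on the log2 scale, and passed the threshold (FDR = 0.0301). The oligodendrocyte markers were higher in the F1 male sGC animals, opposite in direction to EGR4, and their part was not tested.

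The remaining AP-1 genes overlapped between sGC and control animals in every group. FOS ranged from 24.1 to 75.9 CPM in F1 females, with 24.1 CPM in sGC animal 1 and 73.2 CPM in sGC animal 2. Its log2 fold changes were -0.18 ± 0.31, 0.16 ± 0.12, 0.40 ± 0.27 and -0.11 ± 0.26 (SE) in F1, F2 and F3 females and F1 males. The intervals of FOS reached from -0.89 to 0.53 in F1 females and from -0.66 to 0.44 in F1 males. True changes within these ranges were therefore not excluded. FOSB was covered by few reads, as few as 6 in a library. It was 2.38 ± 1.17 CPM in F1 female controls and 1.24 ± 0.966 CPM in F1 female sGC animals, a log2 fold change of -0.95 ± 0.54 (FDR = 0.241 in edgeR's quasi-likelihood test). In F2 females the FOSB log2 fold change was 0.44 ± 0.44, and it was -0.07 without sGC animal 3.

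The zinc-finger gene EGR1, covered by 2246 to 25286 reads per library, was 452 ± 156 CPM in F1 female controls and 394 ± 176 CPM in F1 female sGC animals (SD, n = 4 each), with sGC animal 1 at 169 CPM and sGC animal 4 at 558 CPM. The EGR1 log2 fold changes were -0.20 ± 0.36, 0.12 ± 0.13, 0.29 ± 0.17 and -0.02 ± 0.25 (SE) in the same order of groups. EGR2, known in other tissues for its part in myelination, had a wide range in F1 females, from 1.04 CPM in sGC animal 1 to 12.6 CPM in control 1. Its log2 fold change in F1 females was -0.73 ± 0.49 (FDR = 0.320 in edgeR's quasi-likelihood test), and in the other groups it lay between -0.35 and 0.06.

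NPAS4 lay between 3.66 and 17.8 CPM in all 35 libraries. The value of 17.8 CPM came from F1 female sGC animal 2, the other F1 female sGC animals holding 5.05 to 6.16 CPM. Without that animal the NPAS4 log2 fold change turned from 0.32 ± 0.39 to -0.30. NR4A1, the orphan receptor gene, spread widely in F3 female sGC animals, at 87.0, 25.3, 54.5 and 27.3 CPM, around controls of 41.3 to 52.2 CPM. Its log2 fold changes of -0.46 ± 0.38, 0.18 ± 0.18, 0.05 ± 0.34 and 0.34 ± 0.36 (SE) each had a 95% interval that included 0.

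**Figure D2:**
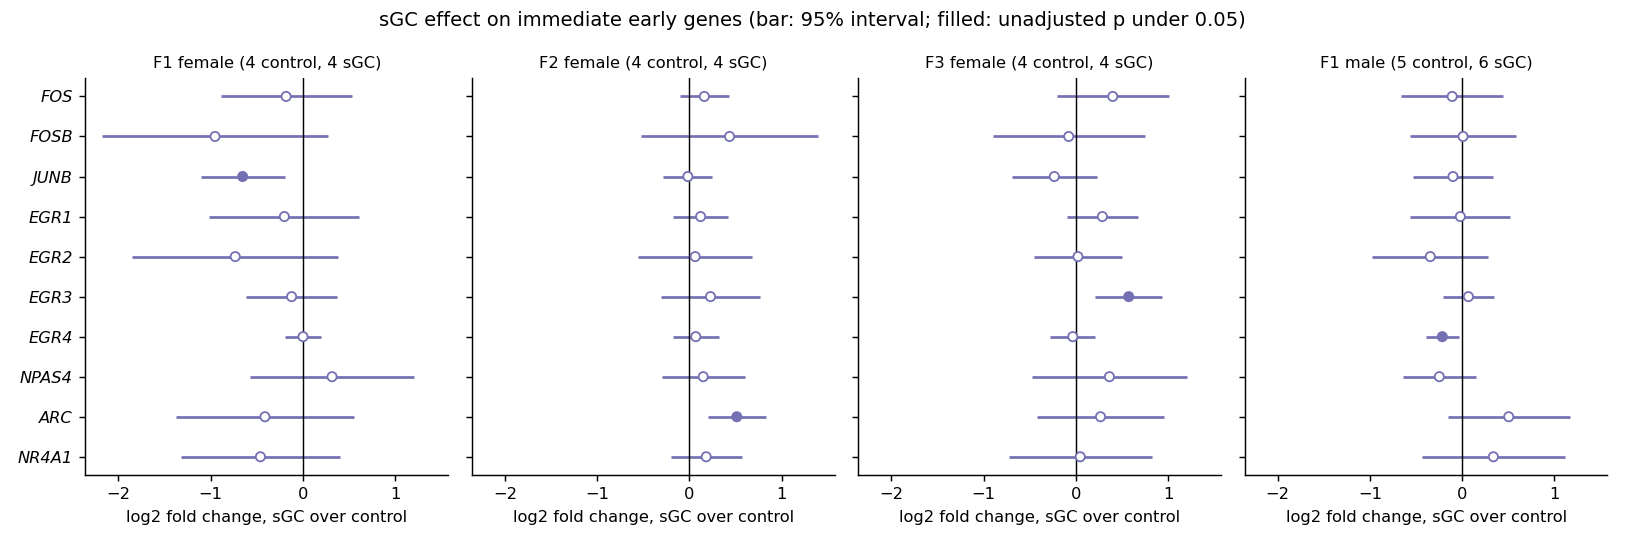
Log2 fold change of sGC over control animals (x axis) for each immediate early gene (y axis) in the 4 groups. Points are edgeR estimates, bars are 95% intervals and filled points have an unadjusted p under 0.05; only JUNB in F1 females, ARC in F2 females, EGR3 in F3 females and EGR4 in F1 males are filled.

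Read across the members, the direction of the estimates was not the same in the 4 groups. In F1 females 2 of 10 members had a positive log2 fold change, in F2 females 9, in F3 females 7 and in F1 males 4. Of all tested genes, 5132 of 11268, 5800 of 11132, 5504 of 11420 and 5758 of 11524 had a positive one, in the same order. The members covaried between animals, as given below, so their signs are not separate observations. The medians over the 10 members were -0.31, 0.16, 0.16 and -0.06, beside -0.03, 0.01, -0.01 and 0.00 over all tested genes. The F1 female values rested in part on 1 pair of libraries, since without controls 1 and 4 the estimates of FOS, EGR1 and EGR3 became 0.13, 0.23 and 0.19. The response to sGC was also compared between groups directly. In the interaction tests 0 of 10 members had an FDR under 0.05 for F1 females against F1 males (31.7% of all genes were called), against F2 females (13.8%) and against F3 females (0.0981%), and for F2 against F3 females (0.018%). At an unadjusted p under 0.05, 0, 1, 1 and 0 members passed, the counts being JUNB and EGR3 given above, against 42.2%, 30.7%, 15.8% and 11.5% of all genes. The likelihood ratio test and DESeq2 likewise called 0 members in the 4 interaction tests. The first 3 of these tests share the F1 female animals. In the first of them sex cannot be told apart from the header name and read depth of the libraries.

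The second question was how much the members varied between animals of the same treatment. The SD of log2 CPM around the group means had a median over the 10 members of 0.62 in F1 females, 0.29 in F2 females, 0.42 in F3 females and 0.49 in F1 males. Ranked among all tested genes, the members had a median percentile of 96.5, 85.9, 94.2 and 96.6. The SD lay above the 90th percentile for 7, 4, 7 and 8 of the 10 members in F1, F2 and F3 females and F1 males. The most variable were EGR2 in F1 females (SD 0.97 on the log2 scale), FOSB in F2 females (0.74), NPAS4 in F3 females (0.62) and NR4A1 in F1 males (0.74). EGR4 had the smallest SD of the members in every group, at percentiles 46.8, 69.2, 70.1 and 63.8 of all tested genes. Among genes of like level its percentiles were higher, at 66.3, 87.3, 84.3 and 82.7. Without sGC animal 1 the median SD of the F1 females was 0.44.

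The same animals tended to be high or low for several members at once. In F1 females control 1 was the highest of 8 animals for 9 of 10 members, the exception being NPAS4, and sGC animal 1 was the lowest for 7. In F2 females sGC animal 3 was the highest for 6 members, and control 2 was the lowest for 5. In F3 females sGC animal 1 was the highest of 8 for 9 members, all but EGR3. In F1 males control 3 was the lowest control for all 10 members and the lowest of 11 animals for 6, whereas control 5 was the highest of 11 for 5 members. High and low animals were thus found in control and in sGC groups.

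Covariation was therefore measured within treatment groups. For each pair of members, Pearson's r was taken over the animals of a table after the mean of each treatment group had been subtracted from the log2 CPM. The median r over the 45 pairs was 0.66 in F1 females, 0.39 in F2 females, 0.50 in F3 females and 0.64 in F1 males, with jackknife standard errors of 0.148, 0.103, 0.290 and 0.156. Over all pairs of tested genes the median r was 0 to the second decimal in each table. The number of member pairs with r above 0.5 was 28, 21, 23 and 28 of 45 (62.2%, 46.7%, 51.1% and 62.2%), beside 18.0%, 17.7%, 17.7% and 11.4% of all gene pairs. Pairs of members share animals and genes, and so they are not independent of each other.

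**Figure D3:**
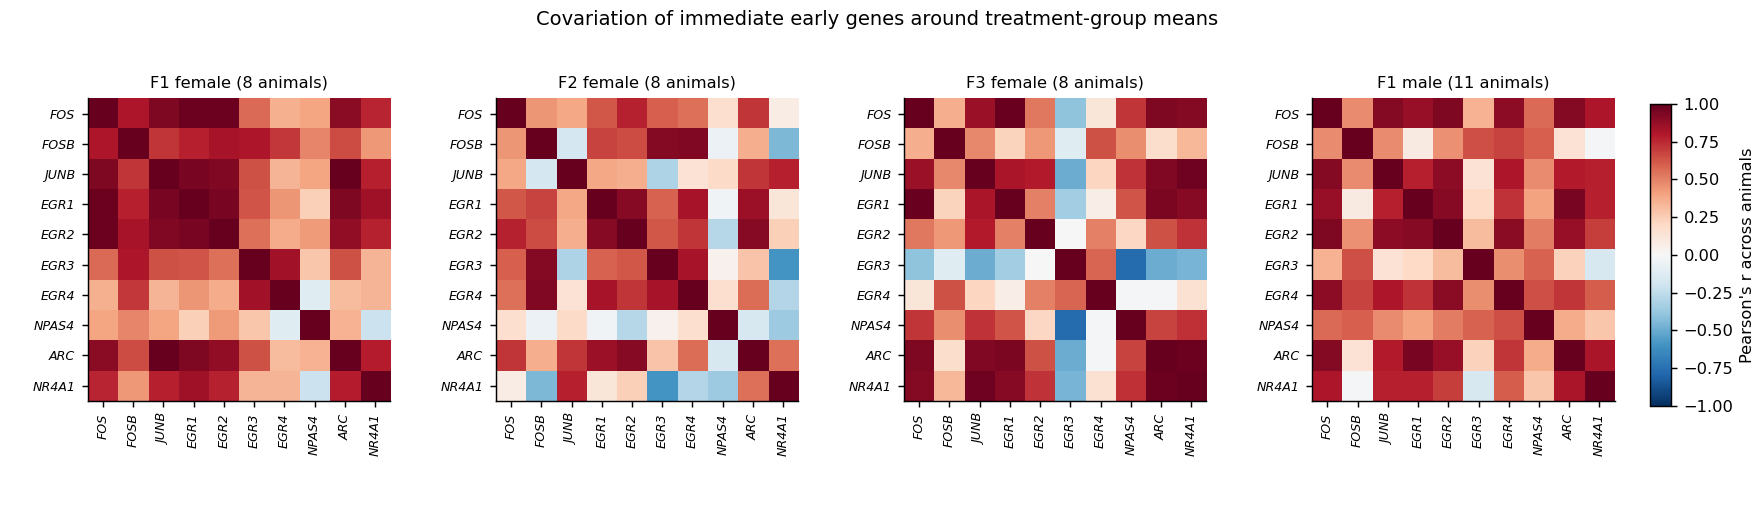
Pearson's r (colour) of each pair of immediate early genes across the animals of each group, after subtraction of the treatment means. FOS, JUNB, EGR1, EGR2, ARC and NR4A1 form a red block in F1 females, F3 females and F1 males, and EGR3 is blue against most members in F3 females, reaching -0.77 with NPAS4.

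Exact permutation of animals within treatment groups gave a two-sided unadjusted p under 0.05 for 15, 10 and 9 of the 45 pairs in F1, F2 and F3 females. After Benjamini-Hochberg adjustment over the 45 pairs of a table, 0 passed in each female group, where 8 animals allow no p below 0.00174. In F1 males, with 11 animals, 23 pairs had an unadjusted p under 0.05 and 17 passed after adjustment by the same exact permutation test. The permutation takes the animals of a group as exchangeable, and for the males shared litters are not excluded. The share of all gene pairs that pass this test was not computed. By Spearman's rho, 0, 0, 0 and 12 pairs passed. In F3 females the covariation rested on few animals, as the median r over pairs was 0.22 without sGC animal 1. When the 2 animals farthest from the median of the first gene of each pair were left out, the median r was 0.56, 0.45, 0.12 and 0.53 in F1, F2 and F3 females and F1 males.

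EGR1 and ARC covaried most evenly across the groups. In F1 females r was 0.93 and rho 0.88 over 8 animals (exact permutation p = 0.00868, adjusted 0.0547). In F2 females r was 0.86 and rho 0.76 (exact permutation p = 0.0208, adjusted 0.117), and in F3 females r was 0.94 and rho 0.98 (exact permutation p = 0.0174, adjusted 0.156). In F1 males r was 0.95 and rho 0.96 over 11 animals (exact permutation p = 2.31e-05, adjusted 0.00104). Without the 2 animals farthest from the median of EGR1, r was 0.84, 0.71, 0.90 and 0.94. In F1 males the lowest animal for both genes was control 3, at 279.9 CPM of EGR1 and 66.5 CPM of ARC, and 814 CPM of EGR1 went with 384 CPM of ARC in sGC animal 1.

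**Figure D4:**
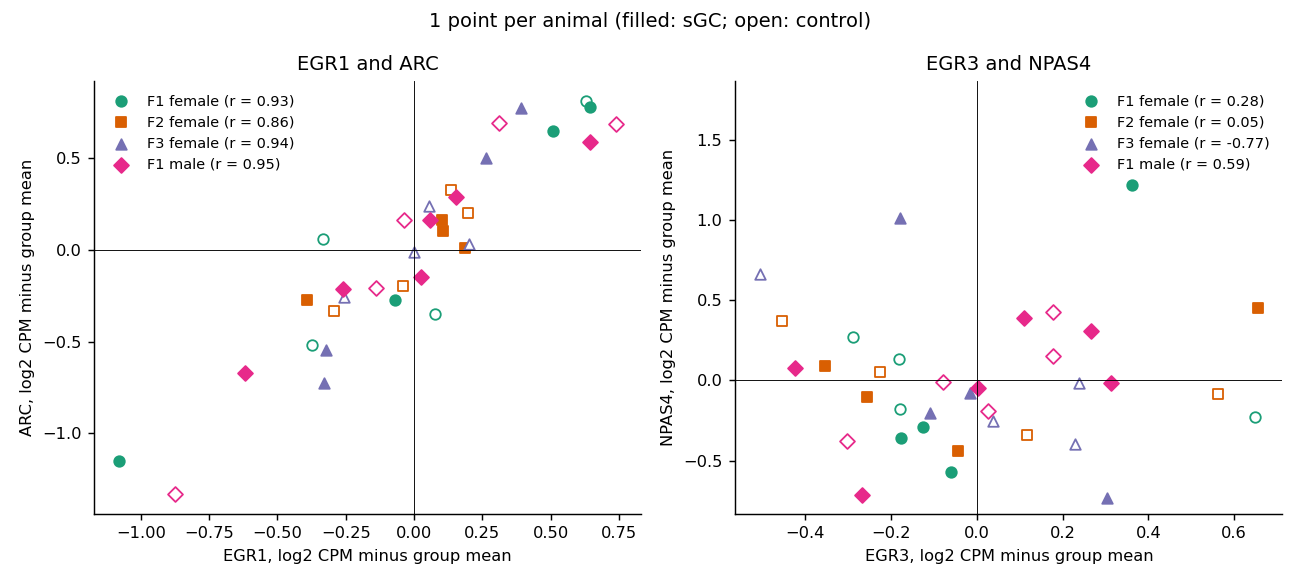
Log2 CPM minus the treatment-group mean for EGR1 against ARC (left) and EGR3 against NPAS4 (right), with 1 point per animal, filled for sGC and open for control, and 1 marker shape per group. The EGR1 and ARC points follow a rising line in all 4 groups (r from 0.86 to 0.95), whereas EGR3 and NPAS4 give r of 0.28, 0.05, -0.77 and 0.59.

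FOS and EGR1 had r of 0.98, 0.62, 0.99 and 0.87 in F1, F2 and F3 females and F1 males, and FOS and ARC had 0.91, 0.72, 0.93 and 0.92. FOS and JUNB, partners in AP-1, had 0.93, 0.39, 0.86 and 0.91. EGR1 and NR4A1 had 0.85, 0.12, 0.91 and 0.77, so that the F2 females stood apart in this pair, in which their r rested on 8 animals and was not tested against that of the other groups. FOS and NPAS4 had 0.39, 0.17, 0.71 and 0.57. The pairs of highest r were JUNB and ARC in F1 females (0.99), FOSB and EGR4 in F2 females (0.93), FOS and EGR1 in F3 females (0.99) and EGR1 and ARC in F1 males (0.95). Those of lowest r were NPAS4 and NR4A1 in F1 females (-0.21), EGR3 and NR4A1 in F2 females (-0.60) and in F1 males (-0.16), and EGR3 and NPAS4 in F3 females (-0.77). In F1 males the exact permutation p, adjusted over the 45 pairs, was 0.00767 for FOS and EGR1, 0.00486 for FOS and ARC, 0.00486 for FOS and JUNB, 0.0183 for EGR1 and NR4A1 and 0.127 for FOS and NPAS4.

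Across the 4 tables, which share no animals, 10 of 45 member pairs (22.2%) had r above 0.5 in every table. Among all pairs of the 10725 genes tested in all 4 tables, 0.307% did. ARC was in 5 of these 10 pairs, with FOS, JUNB, EGR1, EGR2 and NR4A1, and the others were FOS with EGR1, FOS with EGR2, EGR1 with EGR2, JUNB with NR4A1 and FOSB with EGR4. No pair with EGR3 or NPAS4 was among them. The 2 animals farthest from the median of each pair's first gene were then left out. Of the 10 pairs, EGR1 with ARC, FOS with ARC, FOS with EGR1 and FOSB with EGR4 still had r above 0.5 in every table. In F1 females r became -0.00046 for JUNB with NR4A1 and 0.13 for ARC with NR4A1. In F3 females it was 0.12 for FOS with EGR2, 0.048 for EGR1 with EGR2 and 0.49 for EGR2 with ARC. JUNB with ARC had 0.49 in F1 males. The median r of EGR3 with the other 9 members was 0.63, 0.59, -0.40 and 0.32 in F1, F2 and F3 females and F1 males, and that of NPAS4 was 0.35, -0.03, 0.63 and 0.51. Since the EGR genes are related in sequence, reads shared among them could raise their r, and this was not tested.

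Markers of other cells moved with the members in some tables. A joint level was formed as the mean over the 10 members of the standardised deviation from the group mean. Across animals its r with the summed astrocyte markers was 0.21, -0.96, -0.83 and 0.25 in F1, F2 and F3 females and F1 males. With the summed excitatory neuron markers it was 0.39, 0.24, -0.19 and -0.28, and with the summed striatal markers 0.42, 0.03, -0.25 and -0.72. With the summed endothelial and pericyte markers it was -0.61, -0.75, -0.43 and 0.12, with those of oligodendrocytes -0.34, 0.29, -0.39 and 0.51, and with those of microglia 0.37, -0.48, -0.21 and 0.54. With upper-layer neurons it was 0.16, 0.39, 0.08 and -0.47, with inhibitory neurons 0.04, -0.25, -0.06 and -0.02, and with the heat-shock genes 0.48, 0.57, 0.48 and 0.27. With the number of reads per library it was 0.24, 0.31, -0.01 and -0.09. These are descriptions over 8 to 11 animals, and the part of each marker in the covariation was not tested.

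Genes of like pattern were then sought among the 10715 other genes tested in all 4 tables, by r with this joint level over all 35 animals. The 10 highest were DUSP2 (0.82), GPR3 (0.79), CSRNP1 (0.75), NR4A3 (0.75), MIDN (0.74), DNAJB5 (0.74), TRIB1 (0.72), DUSP1 (0.70), ZBTB21 (0.70) and SERTAD1 (0.70). DUSP1 and DUSP2 encode phosphatases that inactivate MAP kinases, NR4A3 encodes a relative of NR4A1, and GPR3 encodes a receptor that raises cyclic AMP. In single tables, the r of DUSP2 was 0.90, 0.77, 0.85 and 0.80, and only SERTAD1 fell under 0.5 in any table, at 0.26 in F2 females. The members themselves, each of which is part of the joint level, ranged from 0.45 for EGR3 and 0.48 for NPAS4 to 0.91 for FOS.

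**Figure D5:**
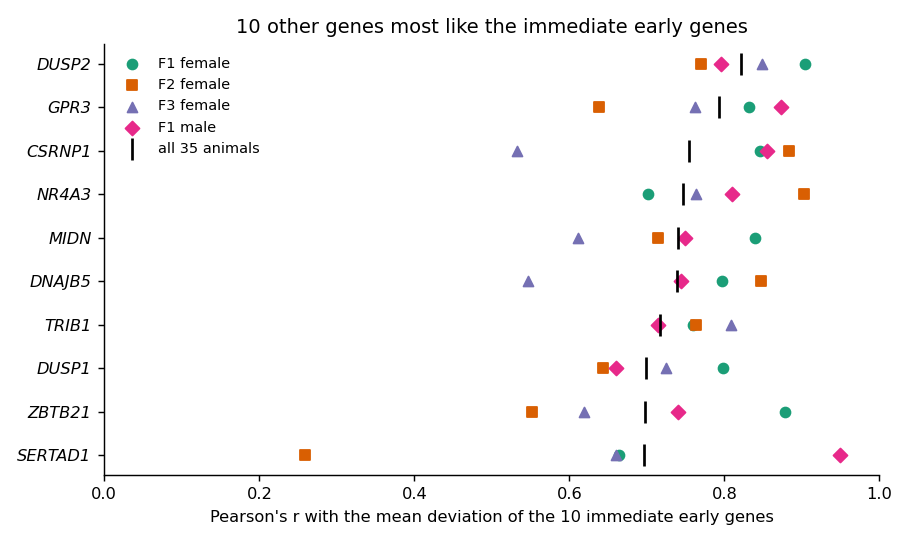
Pearson's r (x axis) of the 10 other genes most like the immediate early genes (y axis) with the mean standardised deviation of the 10 members, in each group (symbols) and over all 35 animals (black bars). DUSP2 reads 0.82 over all animals and SERTAD1 ranges from 0.26 in F2 females to 0.95 in F1 males.

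Among 27 further rapid-response genes, such as DUSP1, NR4A2 and BTG2, 11 (40.7%) had an r above 0.5 with the joint level over all 35 animals, beside 0.859% of the 10715 genes. In the comparison of sGC with control animals, 0 of the 27 rose and 2 fell in F1 females, and 0 passed in the other groups by edgeR's quasi-likelihood test. Of all tested genes, 9.21% rose and 7.33% fell in F1 females, 0.153% and 0.126% in F2 females, 1.07% and 0.271% in F3 females and 5.74% and 3.48% in F1 males. The pair that fell were RGS2, a regulator of G-protein signalling, from 24.1 ± 3.26 to 14.0 ± 0.849 CPM (FDR = 0.00431), and BTG2, an antiproliferative gene, from 10.9 ± 1.37 to 6.53 ± 1.95 CPM (FDR = 0.0435). With each animal left out in turn, RGS2 passed in all 8 fits (FDR up to 0.0222), whereas BTG2 did not pass in 7 of 8 (up to 0.105, without sGC animal 1). Without controls 1 and 4 RGS2 passed (FDR = 0.0172) and BTG2 did not (FDR = 0.131). The median log2 fold change of the 27 genes was -0.21, 0.10, 0.05 and 0.15 in F1, F2 and F3 females and F1 males. At an unadjusted p under 0.05, 7, 5, 3 and 6 of the 27 passed (25.9%, 18.5%, 11.1% and 22.2%), beside 34.2%, 16.1%, 17.3% and 25.2% of all genes. The genes of smallest p elsewhere were NR4A2 (FDR = 0.0506) and HES1 (0.0933) in F2 females, RGS2 (0.0985) and DUSP4 (0.107) in F3 females, and MCL1 (0.116) and DUSP1 (0.119) in F1 males, all by edgeR's quasi-likelihood test.

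Of 21 activity-dependent effector genes, such as NPTX2 and TIPARP, 5 rose and 1 fell in F1 females and 1 fell in F2 females. In F3 females 4 rose, and in F1 males 1 rose and 1 fell. The shares that rose were 23.8% in F1 females and 19.0% in F3 females, beside 9.21% and 1.07% of all tested genes, and the share that fell in F1 females was 4.76% beside 7.33%. With 1 animal left out the number called in F1 females ran from 1 (without control 3) to 11 (without control 1), and in F3 females from 1 (without control 2) to 5 (without control 1). NPTX2, a secreted pentraxin that gathers AMPA receptors, rose in F1 females from 76.1 ± 26.6 to 153 ± 35.5 CPM (FDR = 0.0306) and in F3 females from 47.4 ± 11.7 to 100.2 ± 13.6 CPM (FDR = 0.0216). NPTX1 rose in F1 females from 399 ± 126 to 933 ± 246 CPM (FDR = 0.0172), and NRN1, which encodes the neurite-promoting protein neuritin, rose in F3 females from 54.2 ± 1.65 to 93.2 ± 9.31 CPM (FDR = 0.00424). TIPARP fell in F1 females (FDR = 0.00854), SCG2 in F2 females (FDR = 0.0334) and MFSD6 rose in F1 males (FDR = 0.0432). SYT4, a synaptotagmin, rose in F1 females from 251 ± 38.2 to 336 ± 10.7 CPM (FDR = 0.0276) and fell in F1 males from 279.5 ± 36.8 to 208 ± 20.7 CPM (FDR = 0.0109). With each animal left out in turn, 3 of the 13 calls in this list held in every fit, those of TIPARP in F1 females (FDR up to 0.0352), NRN1 in F3 females (0.0311) and SYT4 in F1 males (0.0322). In a single fit of all 8 groups NRN1 no longer passed (FDR = 0.108). NPTX2 did not pass in 6 of 8 fits in F1 females (FDR up to 0.0811, without control 3) and in 4 of 8 in F3 females (up to 0.0764, without sGC animal 2), and SCG2 did not pass in 5 of 8 (up to 0.139, without control 4). Without controls 1 and 4, 9 genes of the list were called in F1 females. In F1 females, where the excitatory neuron marker sum of controls was 2900.2 to 5024 CPM and that of sGC animals 4168 to 8222 CPM, and in F3 females, where that sum separated the groups as given above, the part of those cells in these differences was not tested.

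Of the genes that carry activity signals to the nucleus, 4 of 37 rose and 3 fell in F1 females, 1 of 36 fell in F2 females, 1 rose and 1 fell in F3 females, and 2 of 36 rose and 6 fell in F1 males. The shares were 10.8% and 8.11% in F1 females, close to the 9.21% and 7.33% of all genes, and 5.56% and 16.7% in F1 males, beside 5.74% and 3.48%. With 1 animal left out the number called ran from 3 (without control 2) to 8 (without control 1) in F1 females and from 2 (without sGC animal 4) to 10 (without sGC animal 6) in F1 males. MEF2C, a factor that binds regulatory regions of activity-dependent genes, rose in F1 females from 200.3 ± 54.4 to 383 ± 95.4 CPM (FDR = 0.0239). MEF2C fell in F2 females from 493 to 339 CPM (FDR = 0.0490) and in F1 males from 539 ± 90.9 to 414 ± 16.9 CPM (FDR = 0.0165). The F2 call was lost with the replicate block (FDR = 0.0537), and in the single fit of 8 groups MEF2C passed neither in F2 females (FDR = 0.0893) nor in F1 males (FDR = 0.0795). Beside these falls, upper-layer neuron markers were lower in every F2 sGC animal, as given above, and in F1 males the oligodendrocyte sums were higher and the excitatory neuron sums ran from 5046 to 5605 CPM against 5398 to 6113 CPM in controls. Their part was not tested. The related gene MEF2A rose in F1 females (FDR = 0.0124) and fell in F1 males (FDR = 0.0481), whereas the kinase gene RPS6KA5 fell in F1 females (FDR = 0.0124) and rose in F1 males (FDR = 0.0431). PPP3CB, a catalytic subunit of calcineurin, rose in F1 females from 360 to 502 CPM (FDR = 0.00535). In F1 females, where MEF2C, MEF2A and PPP3CB rose, excitatory neuron markers summed to 4168 to 8222 CPM in sGC animals. In controls they summed to 2900.2 to 5024 CPM, so the groups overlapped. All 9 of these markers had a positive log2 fold change, with a median of 1.83, though 0 were called. The part of those cells in the 3 rises was not tested. In F3 females CACNA1C, an L-type calcium channel gene, fell (FDR = 0.0251) and CAMKK2 rose (FDR = 0.0351), and in F1 males ATF2 fell (FDR = 0.00445). MAP2K1 was 418 ± 14.0 CPM in F2 female controls and 350 ± 20.8 CPM in sGC animals (FDR = 0.0729), all by edgeR's quasi-likelihood test. With each animal left out in turn, 5 of the 18 calls in this list held in every fit, those of PPP3CB (FDR up to 0.0261), MEF2A (0.0472) and RPS6KA5 (0.0386) in F1 females and of ATF2 (0.0159) and MEF2C (0.0448) in F1 males. MEF2C did not pass in 6 of 8 fits in F1 females (FDR up to 0.0669, without control 3) and in 6 of 8 in F2 females (up to 0.167, without control 3), and MEF2A in F1 males did not pass in 10 of 11 (up to 0.125, without control 3). Without controls 1 and 4 of the F1 females RPS6KA5 did not pass (FDR = 0.0596), and 6 genes of the list were called. The members' own counts were 0 of 10 in each of these comparisons.

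Finally, levels of the same member were set side by side across tables after 1 scaling of all 35 libraries, for control animals. EGR4 was 228 CPM in F1 females, 58.6 CPM in F2 females, 35.6 CPM in F3 females and 58.0 CPM in F1 males. Of 10948 genes, 1.74% differed as far between the F1 and F2 female controls, 1.09% between F1 and F3 females and 1.80% between F1 females and F1 males. EGR1 was 475, 504, 160.4 and 578 CPM, and the F3 female controls were as far from F1 females as 3.73% of genes. FOS was likewise lowest in F3 females, at 62.2, 49.9, 28.8 and 74.0 CPM, whereas FOSB was 2.50, 2.60, 1.88 and 2.38 CPM and JUNB lay between 31.2 and 48.2 CPM. Each table holds 1 generation and sex, so generation, sex and table cannot be told apart. The males also differ from the females in the header name and read depth of their libraries, and no test was made.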

How the data were processed

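Poly(A) RNA from prefrontal cortex punches had been sequenced by the authors as single reads of 51 bases. Per the labels, TopHat2 and edgeR were used, with the TopHat2 version, genome build and read counter not given in the sources used here. The deposited tables, 1 for each generation and sex, hold whole-number read counts per gene, and they were used as deposited. Beside the counts they hold the authors' own fold changes, test statistics and p-values, which were not used. The label of 1 extraction protocol names another brain region than the source field, which was followed here. Sequences and positions of the genes were not analysed here.

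Counts were fitted in R 4.3.3 with edgeR 4.0.16 (quasi-likelihood test, TMM, filterByExpr with a minimum count of 10 and a minimum total of 15), for sGC against control within each table and for the interaction of table and treatment in 4 pairs of tables. DESeq2 1.42.0 was an alternative. P-values were adjusted by Benjamini-Hochberg over all genes tested. The authors' methods name the likelihood ratio test, which was an alternative here because the quasi-likelihood test allows for uncertainty in the dispersion. Levels are TMM-normalised CPM, which is not per length, so that different genes were not compared. Covariation used log2 CPM with a prior count of 2, SciPy 1.17.1 and NumPy 2.4.6, with exact permutation of animals within treatment groups (576 arrangements in females and 86400 in males). The tests were checked on simulated data.

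The members and gene lists were chosen with earlier results of these data known. Genes named from the lists were those with an FDR under 0.05 in at least 2 tables and the 2 of smallest p in each table and list, and genes of like pattern were the 10 of highest r. For samples that the labels call replicates, p-values measure the spread between these animals. Counting error was not computed apart from that spread. It weighs most where reads are few, with minima of 6 for FOSB and 16 for EGR2 in F1 females and 50 for NPAS4 in F3 females.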

Additional observations from a re-analysis of the deposited data

Results flagged for a closer look

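In 4 of 80 groups of animals (10 members in 8 groups), 1 animal lay far from the rest of its group by Dixon's criterion, which by chance marks about 1 group in 20, or 4.0 of 80. EGR3 was 189.6 CPM in control 1 of the F1 females and 98.9 to 107 CPM in the other controls. NPAS4 was 17.8 CPM in sGC animal 2 of the F1 females and 5.05 to 6.16 CPM in the other sGC animals. FOS was 58.8 CPM in sGC animal 3 of the F2 females and 50.9 to 52.1 CPM in the other sGC animals. NR4A1 was 57.4 CPM in control 4 of the F2 females and 35.5 to 38.8 CPM in the other controls.

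No member had a response to sGC that differed between groups at an FDR under 0.05, by edgeR's quasi-likelihood test of the interaction. The 5 pathway genes below did, but they had been chosen for being called in at least 2 tables of the same animals, some with opposite directions, so their differences are a description and no independent test. Compared with F1 females, the log2 response in F1 males was lower by 0.51 ± 0.08 for MEF2A (-0.51, FDR = 0.000149) and differed by -1.32 ± 0.23 for MEF2C (FDR = 0.000399). It differed by -1.08 ± 0.26 for NPTX2 (FDR = 0.00423), by 0.74 ± 0.11 for RPS6KA5 (FDR = 0.000163) and by -0.85 ± 0.15 for SYT4 (FDR = 0.000399). Compared with F1 females, the response in F2 females differed by -0.50 for MEF2A (FDR = 0.0107), -1.48 for MEF2C (FDR = 0.00334), 0.59 for RPS6KA5 (FDR = 0.0265) and -0.84 for SYT4 (FDR = 0.00319). Over all genes, 31.7% and 13.8% were called in these comparisons. The F1 females enter both, and the part of their striatal markers, which were lower after sGC, was not tested. In the comparison with F1 males, sex also went with the header name and read depth of the libraries.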

How the results depend on the processing

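The number of members called was 0 in all 4 groups and rose to 1 in F1 females (JUNB) with the likelihood ratio test, DESeq2, upper-quartile normalisation, library totals only and the single fit of 8 groups. It rose to 1 in F2 females (ARC) and to 1 in F3 females (EGR3) with the likelihood ratio test and DESeq2. Leaving out 1 animal gave 0 to 1 calls in F1 males (1 without control 3, EGR4) and 0 to 1 in the comparison of F1 females with F1 males (1 without F1 female sGC animal 2, FOSB, with a difference of 1.63 and FDR = 0.0392), and 0 in the other comparisons. Whether a control and an sGC animal with the same replicate number are related is not stated, and they were treated as unpaired. The correlation of their deviations from the group means ran from -0.33 (number 1) to 0.34 (number 2) in F1 females. In F2 females it ran from -0.29 to 0.12. These values cannot decide whether such animals shared a litter or a step of the work. With the replicate block 0 members were called, and the estimates of NR4A1 in F3 females (-0.11), FOSB in F1 males (-0.031) and EGR1 in F1 males (0.015) changed sign.

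Other changes of sign were in estimates that did not pass the threshold. EGR4 in F1 females was -0.034 with upper-quartile normalisation and -0.079 with library totals only, and EGR2 in F3 females was -0.0013 and -0.033. Without F1 female controls 1 and 4, an alternative added after seeing the data, FOS, EGR1 and EGR3 became 0.13, 0.23 and 0.19, 0 members were called and 1707 genes were called in all. Leaving out each animal in turn, the estimates in F1 females ranged from -0.39 to 0.060 for FOS, -0.42 to 0.075 for EGR1, -0.26 to 0.17 for EGR3, -0.053 to 0.11 for EGR4 and -0.30 to 0.51 for NPAS4. In F2 females they ranged from -0.073 to 0.67 for FOSB, -0.10 to 0.11 for JUNB, -0.15 to 0.31 for EGR2, -0.048 to 0.45 for EGR3, -0.046 to 0.15 for EGR4 and -0.025 to 0.29 for NPAS4. In F3 females they ranged from -0.34 to 0.16 for FOSB, -0.15 to 0.15 for EGR2, -0.12 to 0.026 for EGR4, -0.11 to 0.66 for NPAS4, -0.026 to 0.47 for ARC and -0.40 to 0.27 for NR4A1. In F1 males they ranged from -0.30 to 0.049 for FOS, -0.12 to 0.30 for FOSB, -0.23 to 0.019 for JUNB, -0.18 to 0.20 for EGR1 and -0.00023 to 0.14 for EGR3.

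Over all genes, 1864, 31, 153 and 1062 were called in F1, F2 and F3 females and F1 males. Leaving out 1 animal gave 613 (without control 3) to 2115 in F1 females, 0 (without control 2) to 487 (without sGC animal 2) in F2 females, 20 (without control 4) to 598 (without control 1) in F3 females and 667 (without sGC animal 4) to 1613 (without sGC animal 6) in F1 males. The likelihood ratio test called 534 and 616 in F2 and F3 females, DESeq2 called 473 and 632 there and 1590 in F1 males, and the block gave 1080, 53 and 67 in F1, F2 and F3 females. The single fit gave 3327, 10 and 396 in the females, and a further requirement of an unadjusted p under 0.001 left 648 in F1 females and 587 in F1 males. In F2 females library totals only, no filter and upper-quartile normalisation gave 96, 76 and 70. Of the interaction tests, F1 against F3 females and F2 against F3 females called 11 and 2 genes, DESeq2 201 and 126, the likelihood ratio test 114 and 93, the block 0 and 9, and upper-quartile normalisation 18 and 4. Leaving out 1 animal gave 808 (without F2 control 3) to 1906 genes in F1 against F2 females, 1 (without F1 control 3) to 97 (without F1 control 1) in F1 against F3 females and 0 (without F2 sGC animal 1) to 44 (without F3 control 1) in F2 against F3 females. The block left all other calls of members as they were. RLE gave 4 in F2 against F3 females, and the same requirement left 1667 of 3569 in F1 females against F1 males and 590 of 1536 in F1 against F2 females.

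The median r between members moved by less than its jackknife standard error with another normalisation or prior count or with Spearman's rho. That error is computed from the values with 1 animal left out, so those values could hardly exceed it and are no check against it. In F3 females the median r fell from 0.50 to 0.12 without the 2 animals farthest from the median of the first gene. It also fell there without sGC animal 1, as given above. Leaving out 1 animal, the median SD of the F1 females ranged from 0.44 to 0.68. Of the 33 calls of pathway genes, 9 held with each animal left out in turn, 11 under the other alternatives run and 6 under both.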
